A study of Rattus norvegicus with 8 samples.

Results

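The sperm tail sheath and dense fibre genes examined here are a chosen set of 10 genes of spermatids, Akap3, Akap4, Odf1, Odf2, Fscn3, Ropn1, Cabs1, Smcp, Gsg1 and Tcp11. Every probe set of the array whose only gene symbol was one of these names was taken, which gave 12 of the 31042 non-control probe sets and 9 of the 10 genes; Ropn1 had none and its level was not analysed here. Whole testis RNA of adult Sprague-Dawley rats was hybridised to one-colour Affymetrix rat genome arrays, 1 array per sample. The groups were testes taken 8 h (2 arrays) and 4 d (3 arrays) after a single gavage of Adjudin at 50 mg/kg body weight, and testes of untreated rats (control, 3 arrays). Groups rest on the sample titles and the series' design text, since the description field of all 8 samples, treated ones included, names normal testis. The labels name no vehicle, and nothing in them says whether the arrays of a group came from different animals; if not, the spread behind each p-value is technical. Adjudin is known to weaken the junctions between Sertoli cells and the germ cells attached to them.

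The sperm tail is built around a microtubule axoneme. In the midpiece the axoneme is wrapped by a sheath of mitochondria, and in the principal piece by the fibrous sheath, a scaffold on which signalling and glycolytic enzymes are fixed. Outer dense fibres run along the axoneme and stiffen the tail. The genes for these parts are transcribed in the testis mostly in spermatids. Of the 10 genes, Akap3, Akap4 and Ropn1 encode fibrous sheath proteins, Cabs1 a calcium-binding protein of spermatids and the sperm tail, Odf1 and Odf2 dense fibre proteins and Smcp a cysteine-rich protein of the mitochondrial sheath. Fscn3 (a testis fascin, which bundles actin), Gsg1 (a germ cell protein that in mice binds a testis poly(A) polymerase) and Tcp11 (a protein of sperm function in mice) are spermatid genes but are not named for either structure.

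The RefSeq promoter table (build GRCr8, 250 bases before to 50 after each annotated start) held windows of 8 of the 10 genes, all except Odf1 and Gsg1. The windows of Akap3 (chr4:161377800-161378099, plus strand), Akap4 (chrX:18117500-18117799, minus strand) and Smcp (chr2:180861515-180861814, minus strand) are shown because they share a stretch close to the cAMP response element. Those of Fscn3 (chr4:58007999-58008298, plus strand) and Cabs1 (chr14:20378227-20378526, minus strand) are shown because these genes had the steepest falls described below. Capitals mark matches to TGANGTCA, the response element with 1 base left free, on either strand.
Akap3: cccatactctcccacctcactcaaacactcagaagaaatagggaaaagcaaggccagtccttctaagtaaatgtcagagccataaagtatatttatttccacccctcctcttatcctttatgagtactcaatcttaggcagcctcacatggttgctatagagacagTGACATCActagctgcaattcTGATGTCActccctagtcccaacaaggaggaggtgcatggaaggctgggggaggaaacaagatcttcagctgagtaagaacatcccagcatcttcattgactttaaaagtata
Akap4: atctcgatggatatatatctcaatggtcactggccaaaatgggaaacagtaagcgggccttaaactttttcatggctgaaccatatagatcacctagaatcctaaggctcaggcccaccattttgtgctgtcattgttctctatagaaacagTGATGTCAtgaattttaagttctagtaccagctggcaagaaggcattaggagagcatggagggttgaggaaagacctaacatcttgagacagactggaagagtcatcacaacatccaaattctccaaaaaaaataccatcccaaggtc
Smcp: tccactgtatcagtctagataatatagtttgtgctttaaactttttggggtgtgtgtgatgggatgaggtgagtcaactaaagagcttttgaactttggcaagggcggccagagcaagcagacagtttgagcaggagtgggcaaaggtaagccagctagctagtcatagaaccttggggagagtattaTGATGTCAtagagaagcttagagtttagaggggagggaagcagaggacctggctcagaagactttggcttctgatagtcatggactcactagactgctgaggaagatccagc
Fscn3: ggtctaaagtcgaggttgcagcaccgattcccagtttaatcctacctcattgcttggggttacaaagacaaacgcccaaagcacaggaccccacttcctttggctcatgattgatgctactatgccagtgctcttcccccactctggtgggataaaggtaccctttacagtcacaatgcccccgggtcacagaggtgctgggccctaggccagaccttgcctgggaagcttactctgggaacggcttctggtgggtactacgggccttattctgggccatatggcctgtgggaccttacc
Cabs1: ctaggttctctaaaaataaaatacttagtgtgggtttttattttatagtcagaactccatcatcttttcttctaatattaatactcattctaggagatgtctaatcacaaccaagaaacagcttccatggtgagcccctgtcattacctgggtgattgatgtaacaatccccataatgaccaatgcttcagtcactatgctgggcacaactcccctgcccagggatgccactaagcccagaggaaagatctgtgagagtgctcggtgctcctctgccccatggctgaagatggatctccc

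The cAMP response element is the site bound by factors such as CREM, which is known to switch on many spermatid genes in mice. The exact element, TGACGTCA, which is also a match to TGANGTCA, was in 0 of the 8 genes' windows and in 1.83% of the 33469 windows in the table. With that base free, the stretch was in windows of 4 of the 8 genes and in 10.16% of all windows. The 8 genes had 10 windows, so a count of genes and a share of windows are unlike measures. Akap3 had 2 matches, TGACATCA starting 84 bases before the annotated start and TGATGTCA at 63 bases. Akap4 had TGATGTCA at 98 bases before its start, Smcp had it at 62 bases, and Ropn1 had TGACATCA at 86 bases. This stretch was chosen after the windows had been read, and a match of letters is a description, not a binding site.

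**Figure D1:**
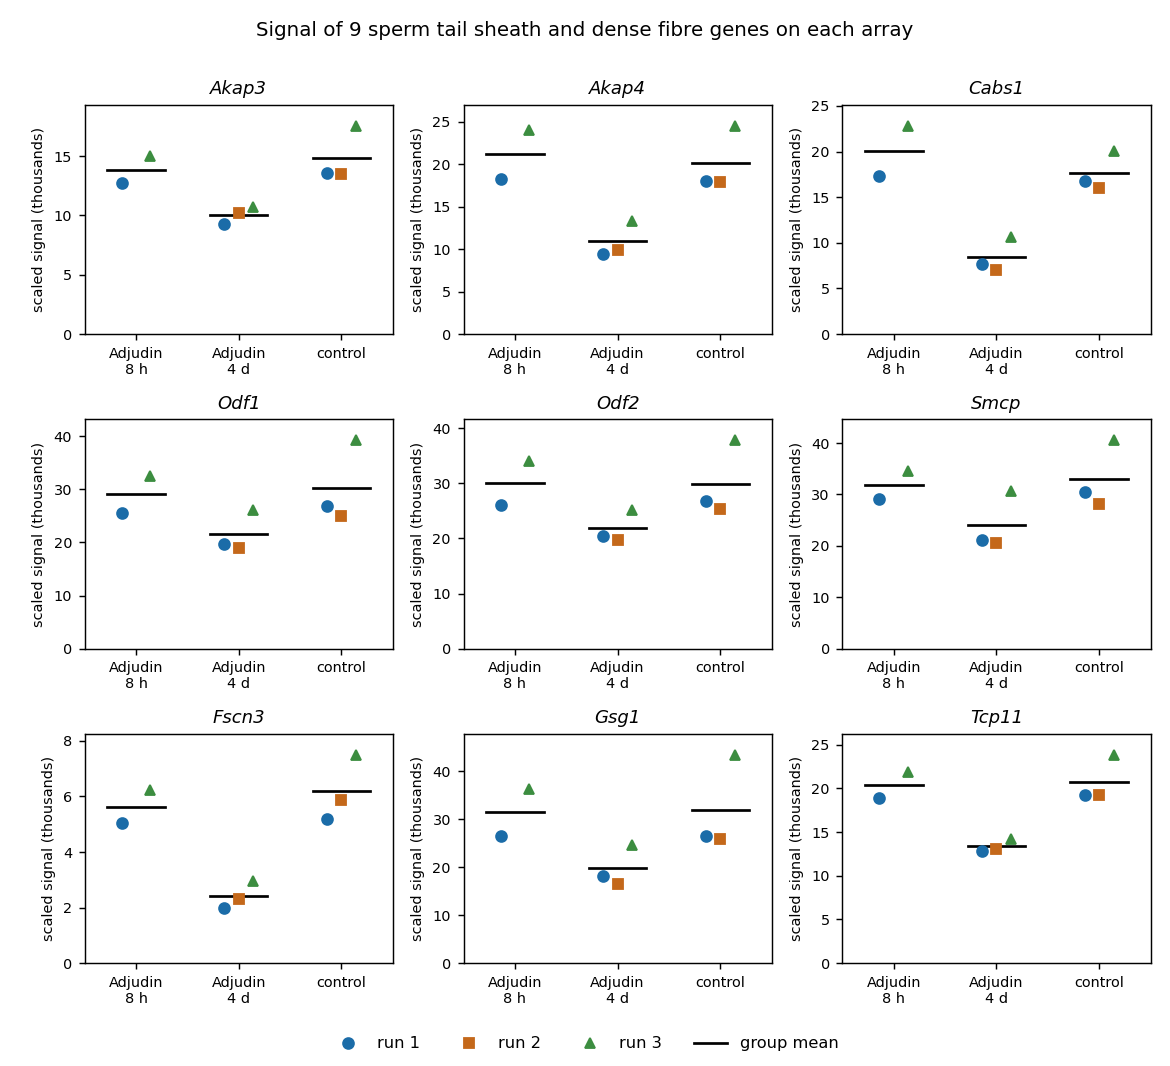
Scaled signal (linear axis from 0) of the representative probe set of each of the 9 genes on every array, with the groups Adjudin 8 h, Adjudin 4 d and control along the horizontal axis. Symbols give the hybridisation run and bars the group means; the 4 d testes had the lowest group mean in every panel, and for 7 genes all 4 d values lay below all control values.

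Arrays with the same recorded hybridisation day were taken as 1 run, which gave 3 runs. No label names a run. Runs 1 and 3 held 1 array of each group. Run 2, washed with another version of the fluidics protocol, held 1 array at 4 d and 1 control. Signal was scaled on every array to a 2% trimmed mean of 500, and 51.6% to 59.0% of probe sets per array lay at or above a signal of 100. Within a group the array of run 3 gave the highest signal for each of the 9 genes. Values of run 3 are therefore given last in each list of 3, after those of runs 1 and 2.

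The comparison of 4 d with control addresses the testis during the loss of germ cells named in the series title. At 4 d, 5 of the 9 genes fell, 0 rose and 4 did not pass, at an adjusted p below 0.05 in limma with Benjamini-Hochberg adjustment over all 19785 probe sets tested. Of all 11241 genes tested, 5.19% fell and 7.63% rose by the same rule. The 9 genes were chosen with earlier results of these arrays known. The shares over all genes are thus given as background, and no test of the set was made. Fscn3, Cabs1, Akap4, Tcp11 and Akap3 were the 5. The median log2 change of the 9 genes was -0.63, against 0.031 for all genes tested, and the values ran between -1.35 and -0.44. For 7 of the 9 genes all 4 d arrays lay below all control arrays, which held for 14.5% of all genes tested. In whole testis RNA, fewer spermatids and less RNA per spermatid cannot be told apart. In the fit blocked by run, 9 of the 9 genes fell and 0 rose, against 11.9% and 15.3% of all genes tested.

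Among the fibrous sheath genes, Akap4 encodes the most abundant sheath protein, an anchor of protein kinase A. Its scaled signal was 9489, 9948 and 13353 at 4 d, against 18013, 17931 and 24533 in controls. The 3 arrays at 4 d lay well below the 3 controls. The fall was 1.84-fold (log2 -0.88, SE 0.18, adjusted p = 0.0154 in limma).

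Akap3 encodes a second kinase A anchor of the sheath, which also binds the Ropn1 protein. It gave 9312, 10200 and 10686 at 4 d, against 13562, 13530 and 17555 in controls, again without overlap. The fall was 1.47-fold (log2 -0.55, SE 0.14, adjusted p = 0.0342 in limma). Akap3 did not pass when any 1 of the 6 arrays at 4 d or of controls was left out, and its adjusted p was 0.000274 blocked by run.

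Cabs1 had signals of 7718, 7038 and 10641 at 4 d, against 16754, 15987 and 20093 in controls. The groups did not overlap, and the highest 4 d value lay below the lowest control value by more than the spread within either group. The fall was 2.10-fold (log2 -1.07, SE 0.18, adjusted p = 0.00563 in limma).

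Of the dense fibre genes, Odf1 encodes a cysteine-rich protein that is a main component of the fibres. Its signal was 19753, 18964 and 26134 at 4 d, against 26803, 24918 and 39231 in controls, so that the 4 d array of run 3 reached above the control of run 2. The difference of -0.47 (log2, SE 0.20) did not pass (adjusted p = 0.191 in limma). Within runs the log2 difference was -0.44, -0.39 and -0.59, and adjusted p = 0.000221 blocked by run.

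Odf2 encodes a coiled-coil protein of the fibres that is also known as a component of the centrosome, and it had 3 probe sets. The brightest gave 20502, 19762 and 25155 at 4 d, against 26795, 25304 and 37813 in controls. The groups lay apart only narrowly, with the highest 4 d value just under the lowest control. The log2 difference of -0.44 (SE 0.18) did not pass (adjusted p = 0.181, or 0.000318 blocked by run, in limma).

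The other Odf2 probe sets did not show that difference. One of them gave 1720, 1629 and 1354 at 4 d, against 1771, 1570 and 1140 in controls, with the groups overlapping (log2 0.084, SE 0.22, adjusted p = 0.877 in limma). Its log2 difference was -0.041, 0.052 and 0.24 within the 3 runs, and adjusted p = 0.601 blocked by run. The remaining one stayed between 5.4 and 50.6 on the 4 d arrays and between 12.6 and 44.4 on the controls, under the signal minimum, and was not tested. Which transcripts of Odf2 each probe set measures was not analysed here.

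Smcp, whose protein lies in the capsule around the midpiece mitochondria, gave 21113, 20542 and 30595 at 4 d, against 30535, 28198 and 40545 in controls. The 4 d array of run 3 lay within the range of the controls. The log2 difference of -0.46 (SE 0.19) did not pass (adjusted p = 0.181 in limma). It was -0.53, -0.46 and -0.41 within the 3 runs, and adjusted p = 0.000294 blocked by run.

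Fscn3 had the steepest change of the set. Its signal was 1976, 2301 and 2962 at 4 d, against 5193, 5868 and 7499 in controls, with a wide gap between the groups. The fall was 2.55-fold (log2 -1.35, SE 0.19, adjusted p = 0.00207 in limma).

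Tcp11 gave 12812, 13034 and 14230 at 4 d, against 19259, 19183 and 23833 in controls, and the groups did not overlap. It fell 1.55-fold (log2 -0.63, SE 0.13, adjusted p = 0.0147 in limma). Gsg1 gave 18200, 16463 and 24540 at 4 d, against 26376, 25773 and 43374 in controls on its brighter probe set, also without overlap. Control 3 stood far above the other controls for Gsg1, and the log2 difference of -0.67 (SE 0.23) did not pass (adjusted p = 0.111, or 5.03e-05 blocked by run, in limma). The other Gsg1 probe set, designed on the same source sequence and of a type that may also bind other transcripts, gave a log2 difference of -0.56 (SE 0.20, adjusted p = 0.119, or 4.83e-05 blocked by run, in limma).

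**Figure D2:**
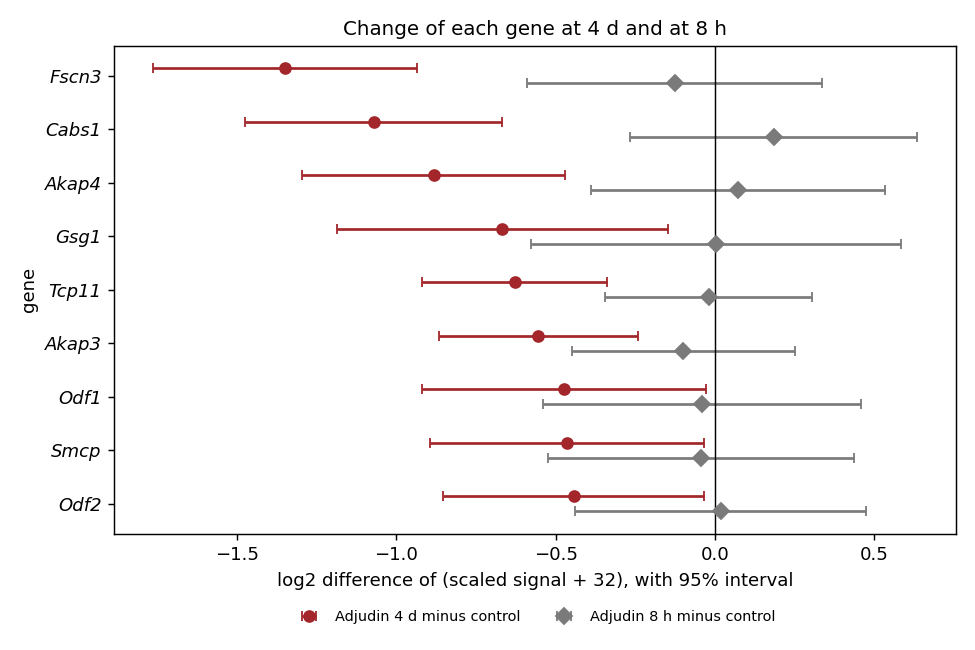
Log2 difference of each of the 9 genes (horizontal axis, log2 of scaled signal + 32) at 4 d and at 8 h against control, with 95% intervals from limma without a block. At 4 d the differences run between -1.35 and -0.44, while at 8 h they lie between -0.13 and 0.18 with every interval across 0.

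The count of 5 rested on both of the first 4 d arrays. Without 4 d replicate 1, or without 4 d replicate 2, only Fscn3 and Cabs1 passed (2 of 9). Without run 1 or without run 2, only Fscn3 passed (1 of 9), as it also did after array medians were made equal (1 of 9). Without run 3, 9 of the 9 genes passed. Calls over the whole array moved as well: 1956 probe sets passed with all arrays, against 895 without 4 d replicate 1, 1342 without 4 d replicate 2, 219 without run 1, 501 without run 2, 1151 with equal medians and 2029 without run 3. All 9 differences stayed below 0 in each of these fits.

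The 4 d and control arrays of each run were also compared directly. Fscn3 had log2 differences of -1.38, -1.34 and -1.33 in runs 1, 2 and 3. Cabs1 followed with -1.12, -1.18 and -0.92, and Akap4 with -0.92, -0.85 and -0.88. The other 6 genes lay between -0.82 and -0.36 in every run. Fscn3, Cabs1 and Akap4 thus kept this order in each run, and the differences between genes were not tested.

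**Figure D3:**
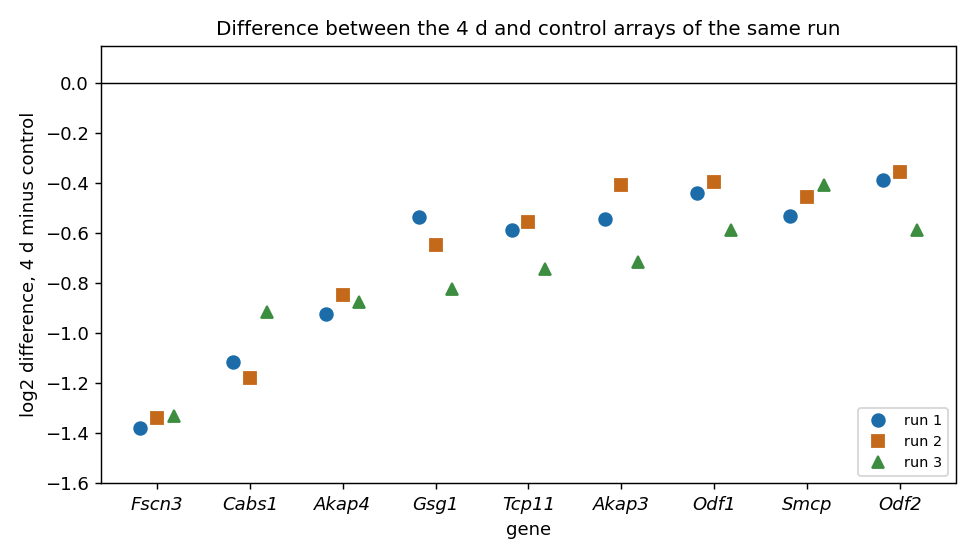
Log2 difference between the 4 d and control arrays of the same hybridisation run (vertical axis), for each of the 9 genes, with 1 symbol per run. Every point lies below 0, and Fscn3 lies lowest in each run.

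The comparison of 8 h with control addresses the early response to the same dose. At 8 h, 0 of the 9 genes rose and 0 fell in limma (0 also at an unadjusted p below 0.05, against 773 of all 19785 probe sets). Among all genes tested 0% fell and 0.0801% rose. Blocked by run, 0 of the 9 passed too, against 0.0089% of all genes that fell and 0.32% that rose. For 0 of the 9 genes did both 8 h arrays lie below all controls, which held for 7.71% of all genes tested. Akap4 gave 18268 and 24046 at 8 h, against a control mean of 20159 ± 3788 (SD, n = 3), and Fscn3 gave 5034 and 6221, against 6187 ± 1186. Both pairs of 8 h arrays overlapped the controls, and the higher value of each pair came from run 3. Cabs1 had the largest positive difference (log2 0.18, 95% interval -0.27 to 0.63), from 17367 and 22822 at 8 h, against 17612 ± 2184 in controls.

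The remaining differences at 8 h were smaller. Fscn3 differed by a log2 of -0.13 (95% interval -0.59 to 0.34), Akap3 by -0.099 (-0.45 to 0.25) and Akap4 by 0.072 (-0.39 to 0.53). For Smcp the value was -0.044 (-0.52 to 0.44), for Odf1 -0.040 (-0.54 to 0.46) and for Tcp11 -0.020 (-0.34 to 0.31). Odf2 and Gsg1 gave 0.017 (-0.44 to 0.48) and 0.0044 (-0.58 to 0.58). Without a block, the intervals of Odf1 and Smcp still hold the differences these genes had at 4 d, while those of the other 7 genes end short of theirs, by little for Odf2. Setting an 8 h interval against a 4 d difference leaves out the error of the 4 d difference. It is no test between the times, which are compared directly below. Blocked by run, the intervals were narrower and those of Odf1 and Smcp ended short of their 4 d differences too. They were -0.29 to -0.0030 for Odf1 (adjusted p = 0.559 in limma) and -0.30 to 0.000485 for Smcp (adjusted p = 0.571). The blocked interval of Fscn3 was -0.36 to 0.053 (adjusted p = 0.689), and none of these intervals is adjusted for the number of genes tested.

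The values at 4 d were also set directly against those at 8 h, because both comparisons above share the control arrays. Of the 9 genes, 4 were lower at 4 d than at 8 h, 0 were higher and 5 did not pass in limma, against 3.58% of all genes tested that were lower and 4.46% that were higher. Cabs1 had 7718, 7038 and 10641 at 4 d, against 17367 and 22822 at 8 h (log2 -1.25, SE 0.20, adjusted p = 0.00794 in limma). For Fscn3 the difference was -1.22 (SE 0.21, adjusted p = 0.00963), for Akap4 -0.95 (SE 0.21, adjusted p = 0.0269) and for Tcp11 -0.61 (SE 0.15, adjusted p = 0.0386). The arrays of the 2 times did not overlap for these 4 genes, nor for Akap3, Odf2 and Gsg1, which makes 7 of 9 genes lower without overlap, against 16.4% of all genes tested. Akap3 (log2 -0.46, adjusted p = 0.138) and Gsg1 (-0.67, adjusted p = 0.191) did not pass, nor did Odf1, Odf2 and Smcp (adjusted p between 0.264 and 0.353).

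The direct comparison rested on single arrays. Without 8 h replicate 2 the count was 0 of 9, and 2 genes, Fscn3 and Cabs1, passed without 8 h replicate 1, without 4 d replicate 1 or without 4 d replicate 2. Over the whole array 1198 probe sets passed with all arrays, against 264 without 8 h replicate 2 and between 398 and 710 in the other 3 fits. Blocked by run, 9 of the 9 genes were lower at 4 d than at 8 h and 0 higher, against 9.5% and 10.3% of all genes tested.

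Other genes of the tail were compared by lists of tail parts, which were written with earlier results of these arrays known. At 4 d against control, 5.19% of all genes tested fell and 7.63% rose, or 11.9% and 15.3% blocked by run. Of 6 other fibrous sheath genes tested, 1 fell at 4 d against control and 5 did not pass (median log2 -0.20; 2 fell blocked by run). Gapdhs, the sperm-specific glyceraldehyde-3-phosphate dehydrogenase fixed to the sheath, fell to 14494 ± 1930 at 4 d, against 25983 ± 4670 in controls (SD, n = 3 each; log2 -0.83, adjusted p = 0.0116 in limma). Spa17, a sheath protein with a kinase A anchor-binding domain, had a log2 difference of -0.29 (adjusted p = 0.267, or 0.00428 blocked by run).

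Of 7 further genes of the dense fibres, 3 fell and 4 did not pass (median log2 -0.49; 4 fell and 1 rose blocked by run). Cimap1b, formerly Odf3b, gave 844.7 ± 161 at 4 d, against 2259 ± 7.03 in controls (log2 -1.40, adjusted p = 0.000493 in limma). Cimap1a, formerly Odf3, fell as well (log2 -0.61, adjusted p = 0.0207), as did Spag4, which binds the Odf1 protein in rats (log2 -0.49, adjusted p = 0.0249). The Cimap1 names reflect that these proteins are now described as associated with ciliary microtubules.

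Of 4 mitochondrial sheath genes tested, Septin4, which forms the annulus below the midpiece, fell (log2 -0.67, adjusted p = 0.0084 in limma) and 3 did not pass. Spata19, a mitochondrial protein of the midpiece, was among those (log2 -0.56, adjusted p = 0.0826, or 5.44e-05 blocked by run), and 3 of the 4 fell blocked by run. Over the whole array 4498 of 19785 probe sets had an unadjusted p below 0.05 at 4 d against control, and 11.9% of all genes fell blocked by run. Of 13 axoneme genes, 0 rose and 0 fell in limma (4 had an unadjusted p below 0.05, and 5 fell blocked by run). Their median was -0.26, and the smallest p belonged to Tekt5, a tektin of the flagellum (log2 -0.51, adjusted p = 0.0744, or 0.00621 blocked by run), and Rsph6a, a radial spoke protein (log2 -0.48, adjusted p = 0.0851, or 0.00788 blocked by run).

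**Figure D4:**
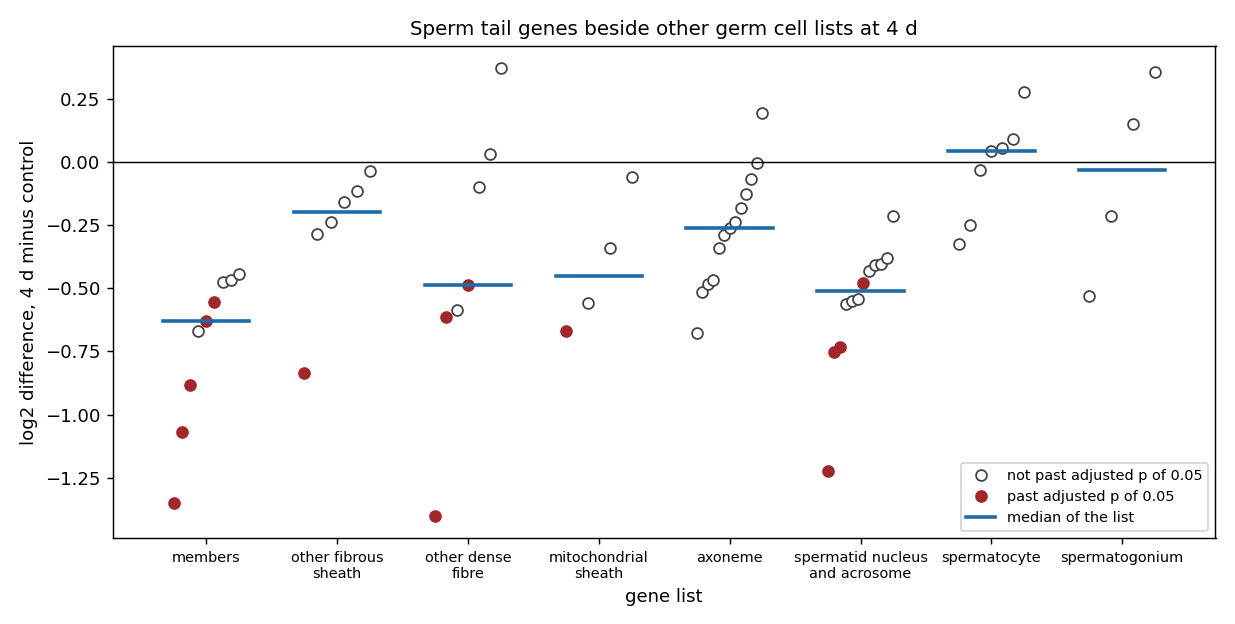
Log2 difference at 4 d against control (vertical axis) of each tested gene of the 9 members and of 7 other lists of tail parts and germ cell stages. Filled points passed an adjusted p of 0.05 in limma and blue bars are list medians, which run between -0.63 for the members and 0.045 for spermatocyte genes.

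At 8 h against control, 0 genes of these 4 lists passed in limma (0 also at an unadjusted p below 0.05, against 773 of all 19785 probe sets). Genes of the spermatid nucleus and acrosome, made in the same cells, were set beside them. Of 12 tested, 4 fell at 4 d against control and 8 did not pass (median log2 -0.51; 11 fell blocked by run). The 4 were Prm2 and Prm3, protamine genes (log2 -1.22, adjusted p = 0.0186, and -0.75, adjusted p = 0.00354), the kinase gene Tssk2 (-0.73, adjusted p = 0.0306) and Crem (-0.48, adjusted p = 0.0395). Over the whole array 4498 of 19785 probe sets had an unadjusted p below 0.05 at 4 d against control. Of 7 spermatocyte genes 0 rose and 0 fell in limma (1 had an unadjusted p below 0.05, 0 passed blocked by run, median 0.045). Piwil2 (log2 -0.32, adjusted p = 0.204) and Ccna1 (-0.25, adjusted p = 0.327) had the smallest p. Of 4 tested spermatogonium genes 0 passed (1 at an unadjusted p below 0.05, median -0.031), with Uchl1 (0.36, adjusted p = 0.176) and Gfra1 (-0.53, adjusted p = 0.413) the nearest, and Uchl1 rose in the fit blocked by run (adjusted p = 0.032).

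Markers of other cells moved at the same time. Of 8 leukocyte genes 6 were tested, and 5 of them rose at 4 d against control, Cd74 (log2 1.88) and Lyz2 (1.81) with the smallest p, while Itgam and Cd3e stayed under the signal minimum. Their summed signal was 6115 to 7960 at 4 d, against 1893 to 2154 in controls. Of 9 Sertoli cell genes 1 rose, the tight junction gene Cldn11 (0.76), 1 fell, the homeobox gene Rhox5 (-1.50), and 7 did not pass. The summed signal of the 9 was 32508 to 43135 at 4 d, against 22568 to 26859 in controls. The brightest by far were Clu (mean 22861 at 4 d, against 15970 in controls) and Cldn11 (10323 against 6046), so the sum mainly follows these genes. Clu passed only with the block (adjusted p = 0.0541, or 0.000516 blocked by run, in limma), and 4 of the 9 had a negative difference. Scarb1 (1.25) among 8 Leydig cell genes and Myl9 (0.84) among 6 peritubular muscle genes rose, and Insl3 (0.71, adjusted p = 0.0791, or 0.00069 blocked by run) and Des (0.80, adjusted p = 0.0702, or 0.00611 blocked by run) were the next by p and passed only with the block. The list medians were 0.44 and 0.069. Differences were negative for 2 Leydig cell genes, Hsd17b3 (-1.14) and Lhcgr (-0.60), and for 3 peritubular genes, Myh11 (-0.39), Cnn1 (-0.22) and Acta2 (-0.13). None of these passed without the block. Blocked by run, 6 of the 6 tested leukocyte genes rose, 3 Sertoli cell genes rose and 2 fell, 4 Leydig cell genes rose and 1 fell, and 2 peritubular genes rose and 1 fell. The summed leukocyte signal at 8 h was 1821 to 2071. All 4 epididymis genes with a probe set lay under the signal minimum. Because every array is scaled to one total, the part of these rises in the falls of the tail genes was not tested.

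The genes most like the 9 members were found by the root mean square difference between a gene's log2 values over the 8 arrays, centred on their mean, and the mean centred profile of the members. Within the set, Gsg1 (0.11), Akap4 (0.11) and Tcp11 (0.12) lay closest to the mean of the other members, and Fscn3 (0.33) and Cabs1 (0.26) farthest. Outside it, Dynll2, a dynein light chain gene, came first (0.043), followed by the kinase gene Tssk2 (0.050), Ube2j1 (0.051), a ubiquitin-conjugating enzyme gene, Spata21 (0.054), Klhl10 (0.060), a germ cell adaptor of a ubiquitin ligase, and Isca1 (0.061), a gene of iron-sulphur cluster assembly. Dynll2 had signals of 11339 to 16112 at 4 d, against 18140 to 25958 in controls, and did not pass without the block (log2 -0.66, adjusted p = 0.0575, or 2.6e-05 blocked by run, in limma). The other 5 had log2 differences at 4 d between -0.76 and -0.68. All 6 were picked for a profile like that of the members over these same arrays, so the sign of their difference at 4 d was set by the choice.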

How the data were processed

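Each probe set has 1 deposited signal intensity per array on the linear MAS 5.0 scale, per the submitters' processing notes and design text; the authors' 2% trimmed mean was 250 on all 8 arrays. The arrays' deposited settings files, with instrument values of other kinds, served only to find the 3 runs. Each array was scaled to a 2% trimmed mean of 500 and log2(signal + 32) was taken, which understates changes of dim probe sets. Testing was limited to probe sets that reached 100 on at least 2 arrays, and 57 control probe sets were left out. This kept 19785 probe sets and 11241 genes, each gene read from its brightest probe set (mean log2 signal). All 8 arrays were fitted together in limma 3.58.1 (R 4.3.3; eBayes with trend), without a block, and p-values were adjusted by Benjamini-Hochberg at 0.05. The fit of 4 d against control was tested on 5 simulated sets with few changed probe sets and no run effect. It recovered 2.67% of changes of log2 0.5, 37.1% of log2 1 and 83.4% of log2 2, and 6.15% of calls were false. Small changes were thus mostly missed there, and a gene that did not pass was not shown to be unchanged. The shares need not hold for the real arrays, where far more probe sets passed. Genes were named from the probe table only where a probe set had 1 symbol (20826 of 31042). Alternatives in scaling, filter, pseudocount, trend, block, probe set choice and arrays left out were run.

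The members and lists were chosen with earlier results of these data known. All members were named, with the 2 genes of smallest p in each list, every gene passing where 4 or fewer did, and the 6 genes of most similar profile. A few further genes of other cells were named because they carried a summed signal or went the other way.

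Control and 4 d arrays with the same number shared a run, while 8 h replicate 2 was hybridised in run 3. Deviations from group means had correlations between 0.353 and 0.507 where 2 arrays of different groups shared a run, and between -0.476 and 0.246 where they did not. The 2 arrays at 8 h have mirrored deviations, so a correlation with 1 of them returns with its sign reversed for the other. Deviations in groups of 3 sum to 0. The 2 ranges are thus not independent. Arrays that shared a run were taken as paired. Values or counts from a fit with the run as a block are printed beside results whose call they change. The main fit has no block and so ignores this pairing. At 4 d against control its SE was larger than that of the blocked fit for all 9 genes (for Odf1, 0.20 against 0.055). A gene that did not pass in it may therefore pass in the blocked fit. Detection calls were not used here. The number of arrays limits the precision.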

Additional observations from a re-analysis of the deposited data

Results flagged for a closer look

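For 4 genes the change since control differed between the 2 times, by the direct limma comparison of 4 d with 8 h. The log2 difference, 4 d minus 8 h, was -1.25 for Cabs1, -1.22 for Fscn3, -0.95 for Akap4 and -0.61 for Tcp11. In all 4 genes each of the 3 arrays at 4 d lay below both arrays at 8 h. That held for 7 of the 9 genes and for 16.4% of all genes tested, so it does not set these 4 apart. By the limma rule 3.58% of all genes tested were lower at 4 d than at 8 h. Blocked by run, 9 of the 9 genes were lower, against 9.5% of all genes tested. Groups of 2 and 3 arrays are too small for a check of single arrays that stand apart.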

How the results depend on the processing

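The 9 genes were lower at 4 d, against control and against 8 h, under all 22 alternatives run, but the number passing the threshold changed. The size of the falls against control changed too. With quantile normalization all 9 were smaller, at -0.19 for Odf1, -0.15 for Odf2, -0.17 for Smcp and -0.43 for Gsg1 (log2). In that fit 7 genes passed against control, with 2117 probe sets passing over the whole array. With equal medians all 9 falls were larger, with Odf1 at -0.52. With the mean of its probe sets Odf2 was at -0.18 (adjusted p = 0.357 in limma), against -0.44 in the main fit. Against control, 5 genes passed; 9 passed with a replicate block by run, 9 with a block by the number in the title and 9 without run 3, while 1 passed after equal medians, 1 without run 1 and 1 without run 2. Leaving out each array in turn gave 2 to 5. Against 8 h, 4 genes passed. With either block 9 passed, while 0 passed after equal medians, 0 without run 2 and 2 with eBayes without trend. Leaving out each array in turn gave 0 to 4. Equal medians left the median change of all probe sets at 4 d at -0.0055, against 0.036 with the main scaling. At 8 h, 0 genes passed in every alternative run. Leaving out whole runs was chosen after seeing the data, and where 1 array was left in a group its spread was assumed to be that of the other groups. Calls over the whole array changed too: against control 4451 probe sets passed with the block by run and 3494 with the block by title number, against 1956 without a block. Against 8 h, 1198 probe sets passed in the main fit, 521 after equal medians and 900 with eBayes without trend. The calls over the whole array without run 2 and with the block by title number are not given for this comparison. Whether the member counts there follow those calls is thus not shown. Of all genes tested, 3.58% were lower at 4 d than at 8 h in the main fit and 9.5% with the block by run. The cause of these changes was not tested.

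Signs near 0 at 8 h were not stable, and none of these log2 values passed. With quantile normalization Odf2 was at -0.022 and Gsg1 at -0.0022. With equal medians Odf1, Smcp and Tcp11 were at 0.036, 0.032 and 0.056. With the block by run Odf2 was at -0.071, Gsg1 at -0.12 and its other probe set at -0.060. With the block by title number Odf1, Fscn3, Smcp and Tcp11 were at 0.13, 0.024, 0.13 and 0.055. Without run 1 Odf1, Smcp and Tcp11 were at 0.058, 0.032 and 0.035. Without run 2 Akap4, Odf2, Gsg1 and its other probe set were at -0.0043, -0.093, -0.13 and -0.058. With the mean of its probe sets Odf2 was at -0.097. Leaving out each array in turn, the 8 h values ran from -0.22 to 0.026 for Akap3, -0.13 to 0.27 for Akap4, -0.21 to 0.16 for Odf1, -0.18 to 0.21 for Odf2, -0.28 to 0.025 for Fscn3, -0.013 to 0.38 for Cabs1, -0.17 to 0.11 for Smcp, -0.22 to 0.25 for Gsg1, -0.12 to 0.23 for its other probe set and -0.12 to 0.085 for Tcp11. The second Odf2 probe set ran from -0.56 to 0.14 at 8 h, from -0.095 to 0.22 at 4 d against control and from -0.053 to 0.65 at 4 d against 8 h.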
